A study of Mus musculus with 3 samples.

Results

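The genes described here encode S100 proteins, small calcium-binding proteins named for their solubility in saturated ammonium sulfate, in skin mast cells of 3 embryonic origins. Members were the rows of the deposited expression table whose symbol was 1 of 8 S100 symbols. These symbols were chosen from the family on FPKM values of these same libraries, so the levels and differences below are descriptions and carry no test. Of the 8, 7 were found among the 20677 rows of the table: S100a1, S100a4, S100a6, S100a8, S100a10, S100a11 and S100a13. S100a9 was not analysed here. The table held 5 further S100 genes.

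All cells were sorted skin mast cells of mice aged 1 week on a mixed C57BL/6xCD1xFVB background, which carried a Cre driver and the EYFP reporter and had been pulsed before birth with 4’OHT, a drug that activates inducible Cre. The early EMP library came from Csf1rCre/EYFP mice pulsed at embryonic day 8.5. Runx1Cre/EYFP mice gave the late EMP library after a pulse at day 8.5 and the fetal HSC library after a pulse at day 9.5. EMP stands for erythro-myeloid progenitor and HSC for haematopoietic stem cell, and each name is the origin that the labels assign to cells which expressed the driver gene at the time of the pulse. With 1 library for each origin, differences could not be set against a spread between replicates, and p-values are not printed. The labels give no number of animals per library. The driver differed between the early EMP library and the rest, which cannot be told apart from origin.

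S100 proteins carry a pair of EF hands, the helix-loop-helix motif that holds a calcium ion, and most act as dimers. On binding calcium they expose a surface that grips partner proteins such as annexins, myosin and other cytoskeletal or membrane proteins. Several leave the cell without a signal peptide and act on receptors such as RAGE and TLR4. Calcium signals also drive the release of mast cell granules, and most mouse S100 genes sit in a cluster on chromosome 3.

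All 7 genes lay on chromosome 3 (GRCm38), in 2 separate stretches. S100a1 (90511034 to 90514330), S100a13 (90514233 to 90524581), S100a4 (90603770 to 90606045), S100a6 (90612894 to 90614414) and S100a8 (90669071 to 90670034) spanned 159.0 kb. S100a11 (93520496 to 93526288) and S100a10 (93555117 to 93564645) lay 2.85 Mb further along. S100a4 and S100a6 were separated by 6848 bases, and S100a11 and S100a10 by 28828 bases. Promoter sequences were taken from RefSeq on GRCm38.p6, which held 6 of the 7 genes. They are printed from 250 bases before to 50 bases after the annotated start for S100a4, S100a6 and S100a11, the genes with such a sequence that differed together between early EMP and both other libraries. Capitals mark matches on either strand to 4 motifs: TATAAA (the TATA box), TGANTCA (AP-1), GGGCGG (the GC box) and CCAAT.

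S100a4, chr3:90603520-90603819, plus strand: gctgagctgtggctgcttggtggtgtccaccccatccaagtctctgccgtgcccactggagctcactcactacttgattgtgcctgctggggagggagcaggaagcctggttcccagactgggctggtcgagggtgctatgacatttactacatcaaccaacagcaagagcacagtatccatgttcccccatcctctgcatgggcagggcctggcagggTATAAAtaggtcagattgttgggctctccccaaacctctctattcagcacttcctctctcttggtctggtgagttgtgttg

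S100a6, chr3:90612644-90612943, plus strand: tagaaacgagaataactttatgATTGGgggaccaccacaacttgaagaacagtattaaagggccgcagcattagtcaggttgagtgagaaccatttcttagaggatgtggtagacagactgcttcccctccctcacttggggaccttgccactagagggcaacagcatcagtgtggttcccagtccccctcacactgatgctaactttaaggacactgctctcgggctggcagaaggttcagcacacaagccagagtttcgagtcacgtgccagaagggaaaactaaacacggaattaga

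S100a11, chr3:93520246-93520545, plus strand: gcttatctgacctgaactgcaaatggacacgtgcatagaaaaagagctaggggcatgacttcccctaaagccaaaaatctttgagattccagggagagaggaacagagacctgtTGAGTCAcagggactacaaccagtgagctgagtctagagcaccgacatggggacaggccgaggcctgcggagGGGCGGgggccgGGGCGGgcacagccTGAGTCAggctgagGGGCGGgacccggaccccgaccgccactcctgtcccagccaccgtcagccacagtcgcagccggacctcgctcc

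These promoters had no motif of the 4 in common. S100a4 had a TATA box that began 31 bases before the start, and S100a8, whose promoter is not printed, had one at 30 bases before it. A TATAAA match was present in 13.62% of 32817 promoters of the same length. S100a6 held a reverse CCAAT match, a motif found in 37.39% of promoters. S100a11 held 2 AP-1 matches and 3 GC boxes, which did not overlap. At least 1 AP-1 match was present in 7.81% of promoters and at least 1 GC box in 35.63%. S100a1 and S100a13 showed no match to any of the 4 motifs within the windows read. A match is a run of letters and not evidence of binding.

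S100a1 and S100a13 are transcribed away from each other and their first bases overlap. The window of S100a13 is shown because it holds the gene starts of both as given above. It begins at 90514185 and was set on a later start of S100a13 than 90514233, so it holds few bases before 90514233. Capitals mark the 98 bases that belong to both annotated genes.

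S100a13, chr3:90514185-90514484, plus strand: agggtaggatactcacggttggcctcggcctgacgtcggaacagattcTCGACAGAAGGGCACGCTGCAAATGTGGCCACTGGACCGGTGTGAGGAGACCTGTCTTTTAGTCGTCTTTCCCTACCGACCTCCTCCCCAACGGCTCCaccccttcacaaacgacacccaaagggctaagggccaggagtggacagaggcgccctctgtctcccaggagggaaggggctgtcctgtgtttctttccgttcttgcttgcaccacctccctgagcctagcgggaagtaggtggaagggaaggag

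S100a10 was the most abundant S100 gene in every library. It encodes p11, an S100 protein that does not bind calcium through its EF hands and instead holds annexin A2 in a stable complex at the membrane. Its level was 143 FPKM (fragments mapped to the gene, scaled for transcript length and library size) in early EMP cells, 616 in late EMP cells and 407 in fetal HSC cells. Late EMP cells were highest, at 4.31 times the early EMP level, and fetal HSC cells were at 2.85 times that level. Such ratios are of FPKM as deposited. On the log2(FPKM + 1) scale, used for all log2 differences and counts here, the differences from early EMP were 2.10 and 1.5. The fetal HSC library was 0.60 lower than the late EMP library on that scale.

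S100a11, which binds annexin A1, stood at 60.8 FPKM in early EMP cells, 127 in late EMP cells and 137 in fetal HSC cells. The later origins were close to each other, with a log2 difference of 0.11, and lay 1.05 and 1.16 above early EMP. Among the members, S100a11 was the one just past the 2-fold level in late EMP over early EMP.

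S100a6 encodes calcyclin, a binder of annexin A11 and of the calcyclin-binding protein Cacybp. Its values were 11.1 FPKM for early EMP, 49.9 for late EMP and 39.25 for fetal HSC, again with early EMP lowest. The log2 differences from early EMP were 2.08 and 1.74, and fetal HSC was 0.34 below late EMP.

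S100a4 had the largest difference of the 7 between late and early EMP. This protein, also called metastasin or FSP1, binds non-muscle myosin IIA and is known for its part in cell motility. It measured 2.11 FPKM in early EMP cells, 83.2 in late EMP cells and 38.8 in fetal HSC cells. These values correspond to about 12, 455 and 246 fragments at the depth implied by the table, so the early EMP value rests on few fragments. As ratios of deposited FPKM, late EMP was at 39.4 times and fetal HSC at 18.4 times the early EMP level. The differences on the log2(FPKM + 1) scale, which are smaller for low genes, were 4.76 and 3.68. Fetal HSC lay 1.08 below late EMP, just past 2-fold, and 0.95 below it with median-of-ratios scaling, which ended that call.

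S100a8 was the member listed at 0 in a library. Its product joins that of S100a9 to form calprotectin, the major cytosolic protein complex of neutrophils, which binds calcium, zinc and manganese. S100a8 measured 1.30 FPKM in early EMP cells, was listed at 0 in late EMP cells and reached 28.95 in fetal HSC cells. The implied numbers of fragments were about 7 and 178 where it was detected. In the late EMP library 3 fragments would amount to about 0.569 FPKM. Fetal HSC stood 3.70 above early EMP on the log2 scale, and no size is given for a fold against the late EMP library, since it would be set by the pseudocount.

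S100a1 and S100a13 were the members that stayed within 2-fold in every comparison. S100a1, best known from heart muscle, where it binds the ryanodine receptor and the calcium pump SERCA, was at 131, 86.5 and 122 FPKM for early EMP, late EMP and fetal HSC. Its late EMP value was the lowest, with log2 differences of -0.59 to early EMP and 0.49 from late EMP to fetal HSC. S100a13, which takes part in the release of FGF1 and interleukin-1 alpha by a route without a signal peptide, was at 38.9, 30.7 and 58.1 FPKM. It was also lowest in late EMP cells, at -0.33 against early EMP, and its fetal HSC value was 0.57 above early EMP. The step of 0.90 from late EMP to fetal HSC was the value closest below 2-fold and came to 1.03 with median-of-ratios scaling. No source used here states whether counting used strand, so fragments from the shared 98 bases could not be assigned to one gene or the other.

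**Figure D1:**
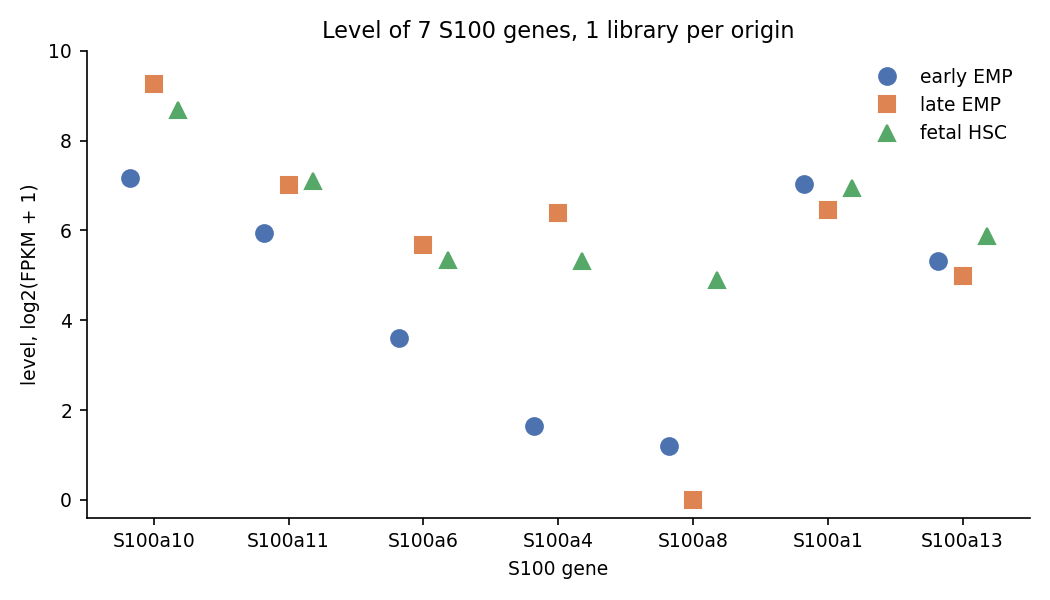
Level of each S100 gene on the log2(FPKM + 1) axis, with 1 point per library (circle early EMP, square late EMP, triangle fetal HSC). S100a10, S100a11, S100a6 and S100a4 have their early EMP point lowest, S100a8 has a point at 0 for late EMP, and the points of S100a1 and of S100a13 lie close together.

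The order of the genes within a library shifted with these values. In early EMP cells S100a10 and S100a1 were nearly level and led, followed by S100a11, S100a13, S100a6, S100a4 and S100a8. S100a1 alone made up 33.7% of the summed S100 FPKM in that library. In late EMP cells S100a10 made up 62.0% of the sum and S100a1 8.70%, and S100a4, at 8.37%, had passed S100a6 and S100a13. In fetal HSC cells S100a10 held 49.0%, S100a11 16.5% and S100a1 14.6%. The 7 genes summed to 388 FPKM in early EMP, 994 in late EMP and 831 in fetal HSC, or 0.0607%, 0.162% and 0.130% of all FPKM of the library. Against all rows with at least 1 FPKM somewhere, S100a10 stood above 96.9%, 99.4% and 99.0% of rows in the 3 libraries. S100a4 stood above 33.0% of rows in early EMP cells, 94.2% in late EMP cells and 88.2% in fetal HSC cells.

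Rows counted as apart differed by at least 2-fold, which is 1 on the log2 scale, among 14412 rows that reached 1 FPKM in at least 1 library. All 7 members passed that filter. Late EMP over early EMP had 4 of 7 members higher, where 8.65% of all rows were, and 1 lower, S100a8 through its listed 0, where 10.8% of rows were. Fetal HSC over early EMP had 5 of 7 higher and none lower, where 8.19% of rows were higher and 17.8% lower. Fetal HSC over late EMP had 1 higher, S100a8 through the same listed 0, and 1 lower, S100a4, where 3.46% of rows were higher and 8.26% lower. The members were chosen on these contrasts, so nothing is read from these counts. The median log2 differences of the 7 were 1.05, 1.5 and 0.11, beside 0.00, -0.11 and -0.10 over all rows. The first 2 comparisons share the early EMP library.

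**Figure D2:**
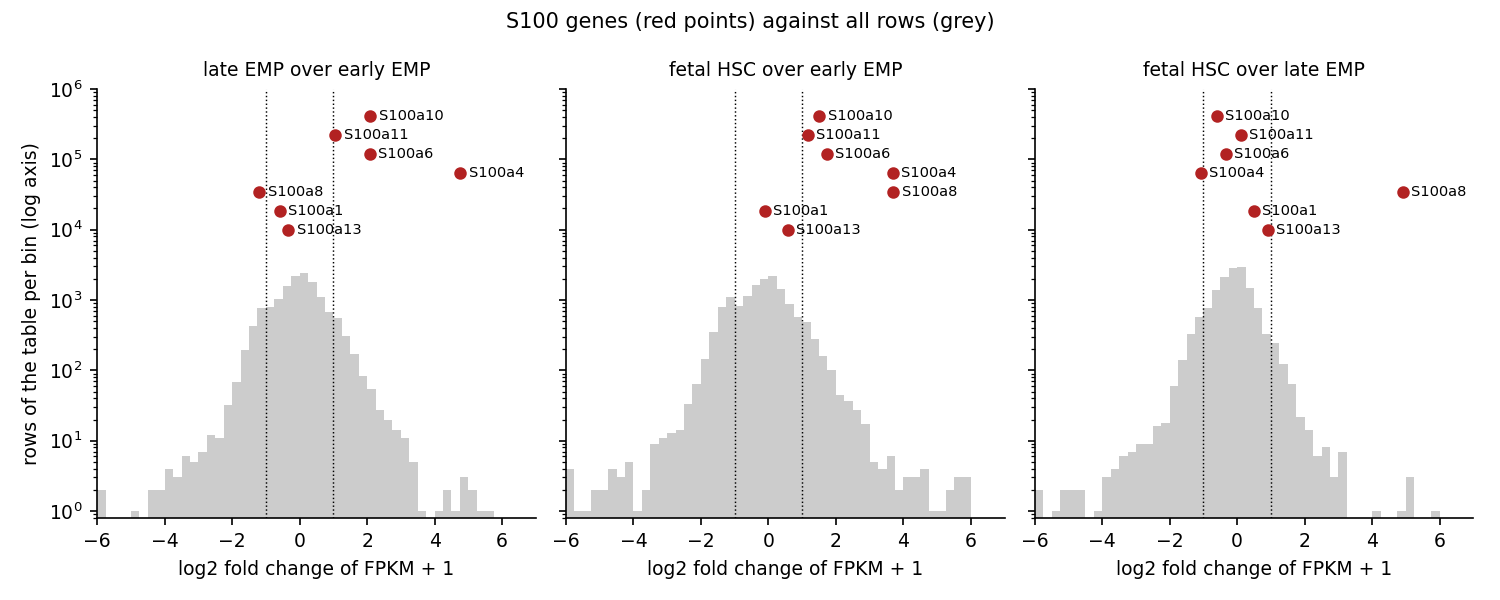
Log2 fold change of FPKM + 1 for the S100 genes (red points, set at arbitrary heights) and for all rows that passed the filter (grey histogram, log axis, ends clipped at 6), in 3 comparisons. Dotted lines mark 2-fold; S100a4 lies at 4.76 in the first panel and the places of S100a8 in the first and last panels are set by the pseudocount, as late EMP is listed at 0.

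The other S100 genes were low. S100a3, a protein of the hair cuticle, was at 1.83, 2.72 and 0.92 FPKM for early EMP, late EMP and fetal HSC. S100a14 was at 1.06, 1.45 and 1.56 FPKM, and S100a16 at 0.36, 1.84 and 1.53 FPKM, which for late EMP over early EMP is 1.06 on the log2 scale. S100b, the S100 protein of glia and melanocytes, was at 0.59 FPKM in early EMP and listed at 0 in the others, and S100g, the intestinal calbindin, was at 0.89 FPKM and then listed at 0. Between S100a13 and S100a4 on the chromosome thus lay 3 genes that stayed under 3 FPKM in all libraries.

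Genes around the cluster were read to see whether the whole stretch differed. Within 500 kb of a member, 29 genes other than S100 genes had a row and 18 passed the filter. Among all rows, 8.65% were higher and 10.8% lower in late EMP over early EMP. In fetal HSC over early EMP 8.19% were higher and 17.8% lower, and in fetal HSC over late EMP 3.46% and 8.26%. In late EMP over early EMP 2 of the 18 were higher, Rab13 and Crnn, and none lower, with a median log2 difference of 0.04. In fetal HSC over early EMP 1 was higher, Rab13, and 2 were lower, Rps27 and Tdpoz5, with a median of 0.01. Fetal HSC over late EMP had none higher and 4 lower, Rps27, Crtc2, Tdpoz2 and Crnn, with a median of -0.04. Crnn was listed at 0 in early EMP and fetal HSC, and Tdpoz5 and Tdpoz2 in fetal HSC, so the calls of these genes come from the pseudocount. Crtc2, a coactivator of CREB, was at 4.75, 9.98 and 3.76 FPKM, and Tpm3, a tropomyosin gene, at 276, 333 and 411, within 2-fold. Rab13, a small GTPase of membrane traffic, was higher in both, at 8.78 and 8.69 FPKM against 3.75. Ilf2, an RNA-binding protein gene on the far side of S100a1 from the other members, was at 11.7, 23.8 and 22.9 FPKM, under 2-fold on the log2(FPKM + 1) scale. Rps27, a ribosomal protein gene with near-identical copies whose single value is uncertain, was at 933, 831 and 383 FPKM. Among Chtop and Snapin, which lie closest to S100a1 on its other side, the difference farthest from 0 was 0.21, for Chtop in late EMP over early EMP. Among genes of the epidermal barrier read between the S100 stretches, Flg2, Rptn and Tchh were at 0.42 FPKM or less in all libraries. Crnn, which also lies there, reached 1.0 FPKM in late EMP. The part of that interval more than 500 kb from a member was not read.

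**Figure D3:**
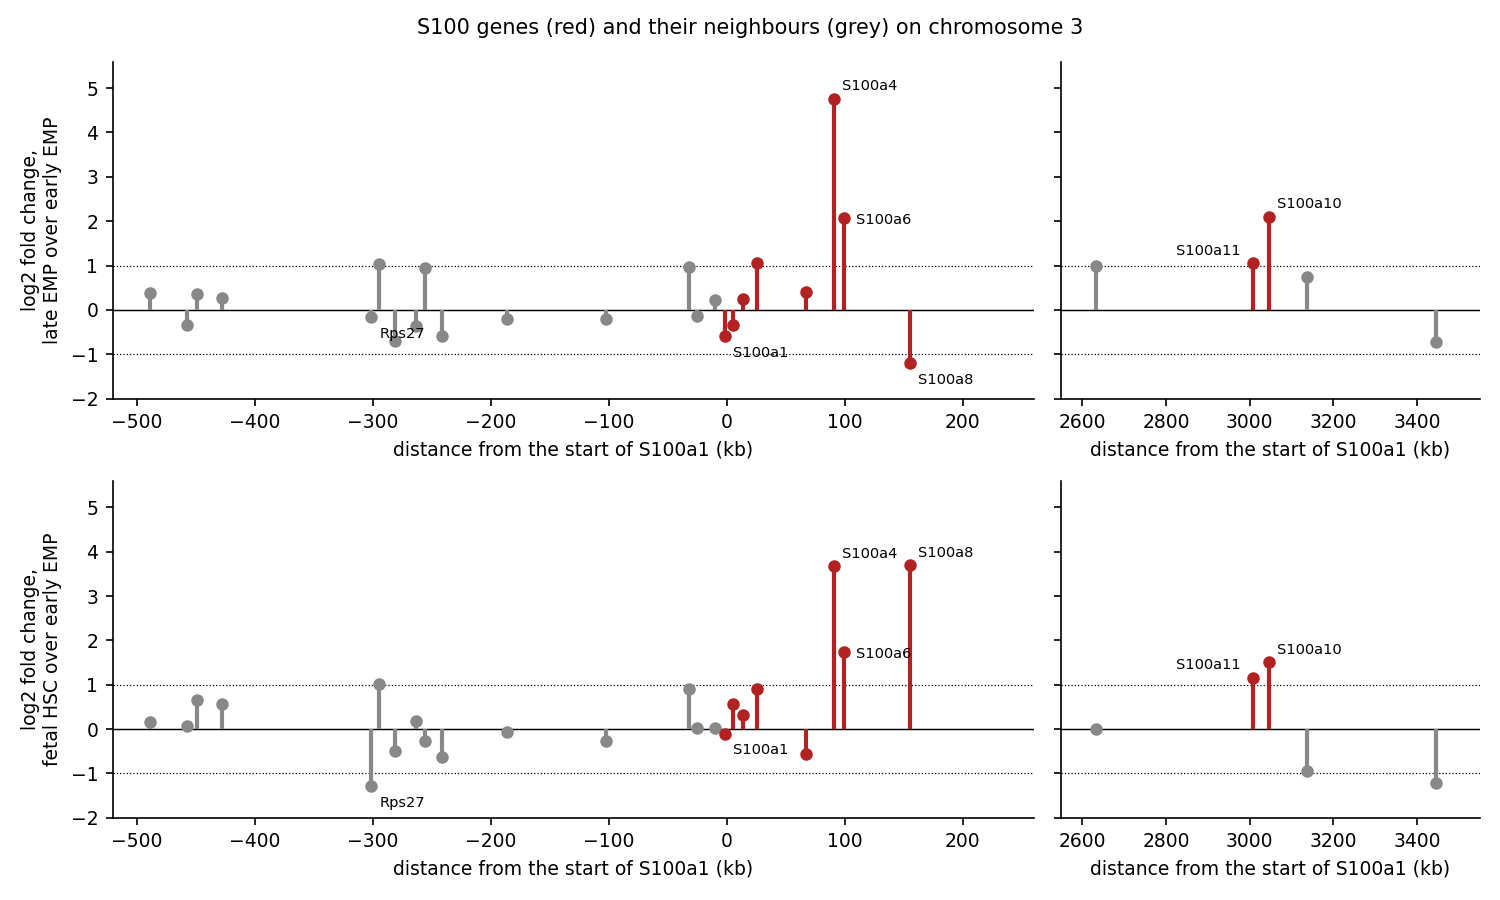
Log2 fold change over early EMP of the S100 genes (red, S100a3, S100a14 and S100a16 unlabelled among them) and of the neighbours that passed the filter (grey) against distance from the start of S100a1 in kb, with the later stretch in the right panels. S100a4 and S100a6 stand side by side above 2-fold (dotted lines) while S100a1, in the same stretch, lies below 0 in both rows.

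Partner genes were read next, starting with the annexins, membrane proteins that several S100 dimers bridge. Anxa2, the partner of S100a10, was at 42.6 FPKM in early EMP, 177 in late EMP and 173 in fetal HSC. It was the annexin that differed most, at 2.03 and 2.0 above early EMP on the log2 scale, beside 2.10 and 1.5 for S100a10. From late EMP to fetal HSC, S100a10 was 0.60 lower on that scale and Anxa2 0.03 lower. Anxa1, the partner of S100a11, was at 215, 334 and 378 FPKM, under 2-fold, with differences of 0.64 and 0.81. Anxa5, which binds phosphatidylserine, was at 155, 247 and 316 FPKM and passed 2-fold in fetal HSC over early EMP, at 1.03. Anxa11, the partner of S100a6, was at 34.3, 41.6 and 32.9 FPKM. Of 9 annexins that passed the filter, 1 was higher in late EMP over early EMP, 3 in fetal HSC over early EMP and none between late EMP and fetal HSC, and none was lower in any. The third in fetal HSC over early EMP, Anxa3, passed the filter through its own value of 1.15 FPKM there. The medians of the 9 were 0.63, 0.45 and -0.03. In the same order of comparisons, 8.65%, 8.19% and 3.46% of all rows were higher and 10.8%, 17.8% and 8.26% lower.

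Other binders and effectors of S100 proteins were read in the same way. Ahnak, a giant scaffold that binds the complex of S100a10 and annexin A2, was at 264, 314 and 389 FPKM. Tubb5, a beta-tubulin and the most abundant gene of the list, was at 284, 397 and 501 FPKM, within 2-fold. Myh9, the myosin heavy chain that S100a4 binds, was at 5.62, 7.30 and 8.0 FPKM, and Cacybp at 31.6, 41.4 and 38.0. Plaur, the urokinase receptor at the cell surface where p11 also promotes plasmin formation, was at 17.1, 37.7 and 73.1 FPKM, 1.10 and 2.03 above early EMP. S100pbp, which encodes an S100P-binding protein, was at 2.69, 4.82 and 6.38 FPKM, and Hltf, whose protein p11 and annexin A2 bind, at 6.72, 10.6 and 12.3. Fgf1, released with S100a13, stayed at 0.27 FPKM or less. Of 18 genes that passed the filter, 1 was higher and 1 lower in late EMP over early EMP, and 3 were higher and 1 lower in fetal HSC over early EMP, with medians of 0.36 and 0.42. The third higher gene beside Plaur and S100pbp was Plat, listed at 0 in early EMP, and the lower gene was Sphk1, at 1.45 FPKM in early EMP, listed at 0 in late EMP and at 0.03 in fetal HSC. Plat passed the filter only through its fetal HSC value of 2.13 FPKM, and Sphk1 only through its early EMP value. None of the 18 was 2-fold apart between fetal HSC and late EMP, and their median there was 0.08. Shares of all rows, in the same order, were 8.65%, 8.19% and 3.46% higher and 10.8%, 17.8% and 8.26% lower.

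**Figure D4:**
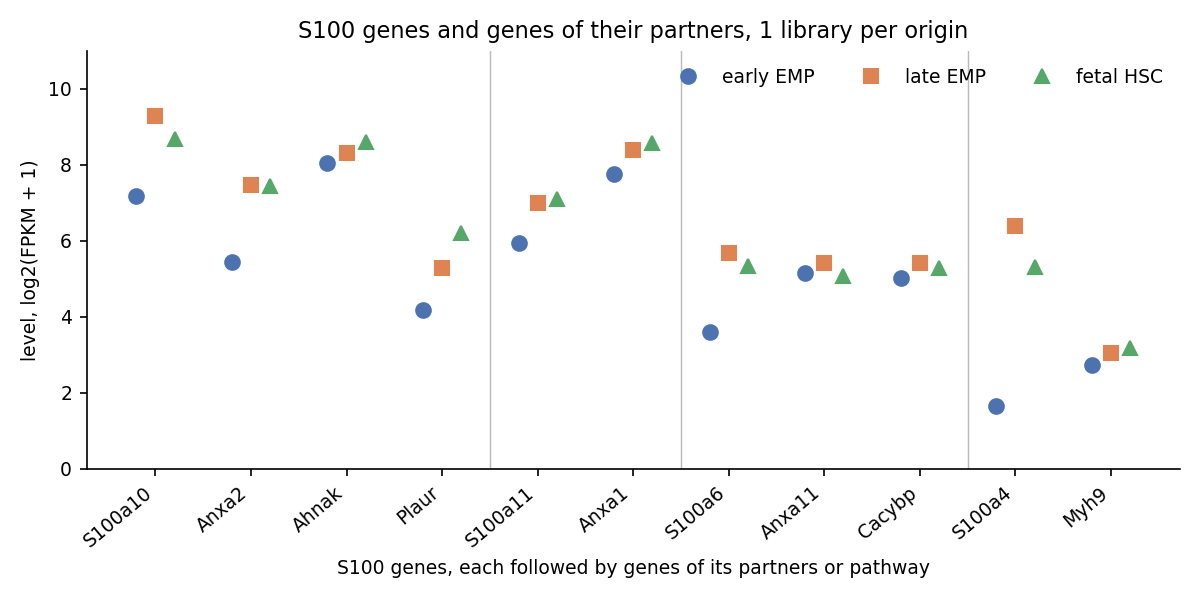
Level on the log2(FPKM + 1) axis of 4 S100 genes, each followed by genes of known partners or of the same pathway, with 1 point per library (circle early EMP, square late EMP, triangle fetal HSC). The early EMP points of S100a10 and Anxa2 both lie well below the others, while those of Ahnak, Anxa11, Cacybp and Myh9 lie near theirs.

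Receptors for released S100 proteins gave low values where the classical ones are concerned. Ager, which encodes RAGE, was at 2.56, 0.83 and 1.60 FPKM, and Tlr4, the receptor of calprotectin, at 0.13, 0.17 and listed 0. Ly96, the partner of TLR4, was at 27.4, 38.9 and 28.3 FPKM. Bsg (basigin) and Nptn (neuroplastin), which are related membrane proteins known to bind S100A9 and S100A8 in human cells, were the most abundant, at 160, 189 and 200 FPKM and at 139, 125 and 106. Cd33, a sialic acid-binding inhibitory receptor whose human form binds S100A9, was at 60.0, 28.4 and 34.9 FPKM, 1.05 lower in late than in early EMP on the log2 scale. Of 7 receptor genes that passed the filter, 2 were lower in late EMP over early EMP, Cd33 and Cd14, and none higher. None was 2-fold apart in fetal HSC over early EMP, and 1, Cd14, was higher in fetal HSC over late EMP, at 1.98 against 0.42 FPKM. The medians were -0.23, -0.38 and 0.10. Shares of all rows, in the same order, were 8.65%, 8.19% and 3.46% higher and 10.8%, 17.8% and 8.26% lower.

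Other proteins with EF hands or related calcium sensors showed mostly small differences. Calm2, a calmodulin gene, was at 1422, 1364 and 1575 FPKM, above every S100 gene, and Myl6, a myosin light chain, at 872, 869 and 927. Aif1, the EF-hand protein IBA1 of macrophages, was at 2.04, 3.88 and 20.03 FPKM, with fetal HSC highest as for S100a8. Rcn1, a reticulocalbin of the endoplasmic reticulum, was at 18.3, 6.26 and 7.49 FPKM and Stim1, the calcium sensor of that compartment, at 41.8, 29.4 and 16.4. Of 18 genes, none was higher and 1 lower in late EMP over early EMP, and 2 were higher and 2 lower in fetal HSC over early EMP. Fetal HSC over late EMP had 1 higher and none lower, and the medians of the 3 comparisons were -0.03, 0.12 and 0.18. Of all rows, 8.65%, 8.19% and 3.46% were higher and 10.8%, 17.8% and 8.26% lower in these comparisons.

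Myeloid transcription factors were read because C/EBP proteins and PU.1 are known to act on S100a8 in granulocytes. Spi1, which encodes PU.1, was at 55.4, 49.8 and 49.3 FPKM and Stat3 at 44.4, 41.5 and 30.4. Cebpb was at 1.66, 1.31 and 1.19 FPKM, and Cebpe, a factor of late granulocyte maturation, reached 0.85 FPKM in fetal HSC cells and was listed at 0 for the EMP origins. Irf8, a factor of monocytes and dendritic cells, was at 0.21, 2.18 and 11.5 FPKM. Gfi1, a transcriptional repressor that acts in the granulocyte lineage, was at 25.5, 13.6 and 17.4 FPKM, and Klf4 at 12.5, 11.1 and 18.1. In each comparison 1 of 7 genes that passed the filter, Irf8, was higher and none lower, with medians of -0.15, -0.16 and 0.02. Of all rows, 8.65%, 8.19% and 3.46% were higher and 10.8%, 17.8% and 8.26% lower in the same order.

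Genes with the most similar pattern were sought for each member that was 2-fold apart anywhere. The measure was the Euclidean distance of log2(FPKM + 1) over the 3 libraries, each gene centred on its own mean, among 5647 genes that reached 10 FPKM. Cxcr6, a chemokine receptor, lay nearest to S100a4 at a distance of 0.62, with 0.48, 23.1 and 18.4 FPKM, followed by the arginase Arg1 at 0.71 and the carbonic anhydrase Car1 at 0.96. S100a6 had Rpl29, a ribosomal protein gene with near-identical copies, at 0.07, the mitotic kinase Aurka at 0.08 and Abhd14a at 0.15. S100a11 was matched most closely, by Actr3, which encodes the Arp3 subunit of the actin-nucleating Arp2/3 complex, at 0.01, with 34.0, 71.1 and 76.2 FPKM. Nup54, a nuclear pore protein, followed at 0.02 and Adrbk2, a kinase that acts on G protein-coupled receptors, at 0.04. S100a10 had Mut, a mitochondrial mutase, at 0.10, Cdpf1 at 0.12 and Nav1 at 0.13, and its partner Anxa2 came 38th at 0.44. For S100a8, listed at 0 in late EMP, the distances depend on the pseudocount, and no gene lay close on this scale. Dnase1l3, an extracellular nuclease, lay at 1.33, Bcl2a1b, one of several near-identical genes, at 1.37, and Ifi205, an interferon-induced gene, at 1.65. Over 3 points many genes are alike in shape, so likeness describes these libraries alone.

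Markers of mast cells and of other cells were read beside these values. In bulk RNA, fewer cells of a type and less RNA per cell cannot be told apart. All 8 mast cell markers, among them Kit and Tpsb2, were at 38.8 FPKM or more in every library. The 7 neutrophil markers read, S100 genes aside, summed to 1.23, 1.39 and 0.69 FPKM, and none reached 1 FPKM in any library. Ngp, Camp and Mmp8, also on that list, were not read here. Ly6g was listed at 0 in late EMP and in fetal HSC, the latter being the library with 28.95 FPKM of S100a8. Granulocyte precursor markers summed to 114, 809 and 887 FPKM, led by Ctsg, and 1, 5 and 5 of 5 reached 1 FPKM. Elane, the neutrophil elastase, was at 0.42, 8.73 and 34.7 FPKM. Monocyte markers, genes of cells that also carry S100a4 and S100a8, summed to 53.0, 90.3 and 137 FPKM over 5 genes. Lyz2, with the highest mean, was at 37.65, 39.8 and 44.8 FPKM, and Plac8, at 6.24, 39.0 and 62.8, was above it in fetal HSC. F13a1 went the other way, at 8.78, 3.25 and 1.94 FPKM. Ly6c2 was at 0.18, 2.65 and 20.9 FPKM and Ccr2 at 0.11, 5.56 and 6.66. Their part in the S100 values was not tested.

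Markers of dividing cells summed to 129, 330 and 314 FPKM over 8 genes, led by Pcna. Their sum was lowest in early EMP, as were S100a4, S100a6, S100a10 and S100a11. The granulocyte precursor, monocyte, lymphoid, melanocyte, fibroblast and keratinocyte sums were lowest there too. The 8 lymphoid markers summed to 36.6, 45.1 and 62.5 FPKM. Icos, with the highest mean, was at 9.42, 21.6 and 23.4 FPKM, while Cd3e was at 13.5 in early EMP, listed at 0 in late EMP and at 0.63 in fetal HSC. Thy1 was listed at 0 in early EMP. The 6 fibroblast markers summed to 1.54, 7.2 and 3.70 FPKM, with Col1a1 highest in both EMP libraries, Col1a2 highest in fetal HSC, and Lum and Dcn listed at 0 in early EMP. The 8 keratinocyte markers summed to 2.28, 6.10 and 2.42, led by Sfn, and Krt14 was listed at 0 in early EMP. Melanocyte markers summed to 1.59, 13.8 and 40.7 FPKM over 5 genes, with Pmel highest in both EMP libraries and Mlana, listed at 0 in early EMP, highest in fetal HSC. Macrophage markers went the other way, at 79.7, 54.8 and 22.9 FPKM over 8 genes, with C1qb highest in early EMP, C1qc in late EMP and Cd68 in fetal HSC. Dendritic cell markers summed to 4.26, 3.88 and 9.84 FPKM over 7 genes, with Epcam highest in early EMP, Cd209a in late EMP and Flt3 in fetal HSC. Endothelial markers summed to 7.08, 7.52 and 4.69 FPKM over 4 genes, led by Pecam1, and Schwann cell markers to 2.75, 3.97 and 1.54 over 3, led by Mbp. The part of these cells in the S100 differences was not tested. Sex-linked RNA also differed, with Xist at 25.6, 0.53 and 52.0 FPKM and Ddx3y at 20.7, 38.5 and 0.32, and sex cannot be told apart from origin here.

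**Figure D5:**
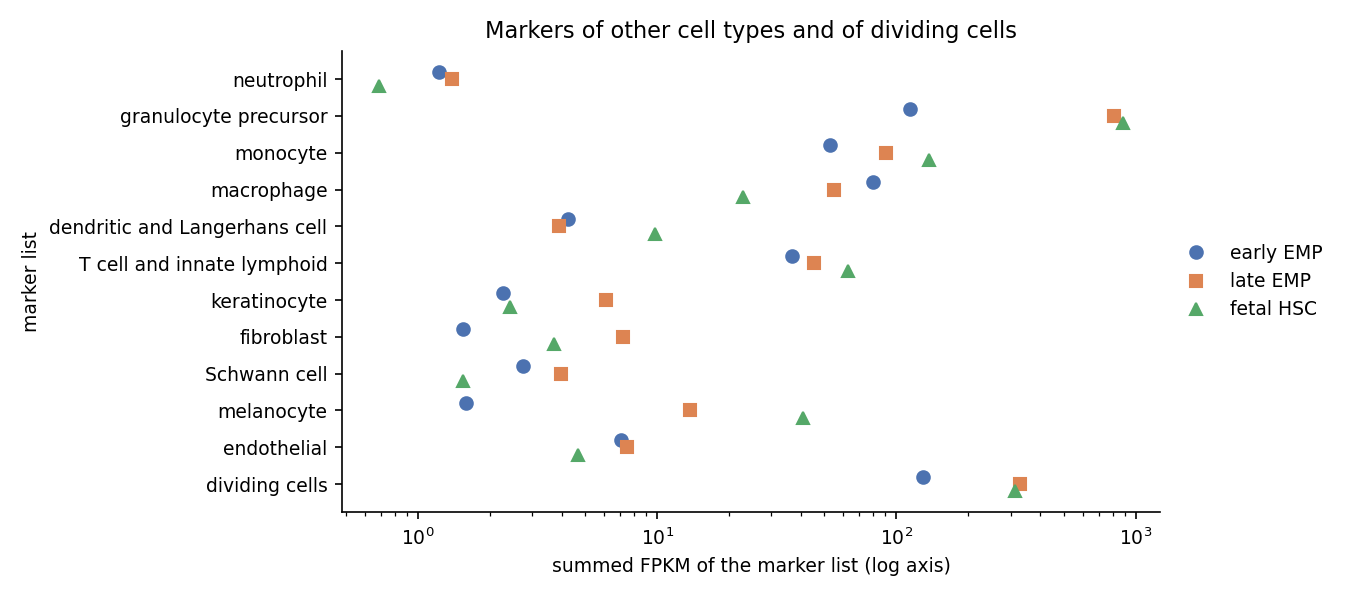
Summed FPKM (log axis) of marker lists of other cell types and of dividing cells, S100 genes left out, with 1 point per library (circle early EMP, square late EMP, triangle fetal HSC). The 7 neutrophil markers read sum to 1.39 or less in all libraries. Sums that are lowest in early EMP include those of granulocyte precursor, monocyte, melanocyte and dividing cell markers.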

How the data were processed

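RNA of sorted mouse skin mast cells was sequenced on an Illumina HiSeq after TRIzol extraction, per the labels’ protocols. The authors deposited FPKM values per gene for 3 libraries, per the file headers, and the submitters’ processing notes name Bowtie2, RSEM, mm10 and GRCm38 with no versions. FPKM is a share of a library, so very abundant transcripts lower all others, and a listed 0 can be a failed estimate. The values have 2 decimals. Each column was tied to its library by the description in the labels, where early EMP carries the name ctrl.

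The filter for low values asked for 1 FPKM or more in any library and left 14412 of 20677 rows. Fold changes are log2 of the ratio of FPKM + 1, which understates changes of low genes, and 2-fold was the level counted. Of 17613 rows with a symbol, 17569 matched RefSeq on GRCm38.p6, the source of coordinates and promoters. With 1 library per group no test was possible. Depth is not stated. The spacing of low values implied 15.3, 15.7 and 16.8 M fragments for early EMP, late EMP and fetal HSC, with 74.9%, 74.3% and 68.3% of values within 0.15 of a whole number. Depth and a length offset were fitted to these same values, so fragment numbers are imprecise and cover counting error at best.

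The members, gene lists, motifs and alternatives were chosen with earlier results of these data known. Named genes were all S100 genes, from each partner, effector, receptor, EF-hand and transcription factor list 2 genes by abundance and up to 3 by fold, at 5 FPKM or more, the 3 nearest patterns per member and the marker with the highest mean per list. Known direct partners and receptors of the members, C/EBP genes, neighbours of interest and further markers were named besides, after their values were seen. Counting steps were tested on simulated data. Alternatives were other pseudocounts, scalings, filters, rows and folds. Protein sequences were not used here, so a planned comparison of EF hands was not made. The software was pandas 2.3.3 and numpy 2.4.6 under Python 3.11.15, with figures from matplotlib 3.10.9.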

Additional observations from a re-analysis of the deposited data

How the results depend on the processing

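No paired analysis was possible because each group had 1 library. Of the 7 members, 5 were 2-fold apart in late over early EMP, 5 in fetal HSC over early EMP and 2 between fetal HSC and late EMP. A 4-fold level gave 3, 2 and 1. At that level 0.999%, 1.12% and 0.305% of all rows were higher, and 0.604%, 1.19% and 0.569% lower. Leaving out genes listed at 0, an alternative added after the data were seen, gave 4, 5 and 1. The other alternatives kept these counts within 1.5 times, but median-of-ratios scaling changed which genes they held between fetal HSC and late EMP: S100a4 moved to -0.95 and S100a13 to 1.03. Of 105 recomputed differences, 102 kept their side of 2-fold, none turned, and the remaining one, S100a8 in late EMP over early EMP, came to -0.33 with a pseudocount of 5 FPKM. The share of all rows counted moved far more. In the same order of comparisons, rows higher were 13.9%, 12.5% and 6.92% with a pseudocount of 0.1 FPKM and 1.46%, 1.76% and 0.458% with 5 FPKM, against 8.65%, 8.19% and 3.46%. Rows lower were 17.5%, 24% and 18.2%, and 0.812%, 1.43% and 0.895%. Without unnamed rows 4.24% were lower, against 10.8%, and 8.60% against 17.8% in fetal HSC over early EMP. With a filter at 5 FPKM the rows lower in these comparisons were 3.39% and 7.05%. Fetal HSC over late EMP had 1.89% higher with that filter, against 3.46%. Depth limits the low values, foremost S100a4 and S100a8 in early EMP cells, at about 12 and 7 fragments.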
